A study of Mus musculus with 25 samples.

Results

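The 25 BXD strains were divided by the level of Scg5 in their dorsal root ganglia, and the other genes were compared between the divisions. Scg5 encodes 7B2, a small secretory protein of neurons and endocrine cells. 7B2 binds the prohormone convertase PC2, the product of Pcsk2, during its transport to dense-core vesicles and is needed for PC2 to become active. Dorsal root ganglia house the cell bodies of the sensory neurons that connect skin, muscle and viscera with the spinal cord. There, peptidergic nociceptors package peptides such as CGRP and substance P in these vesicles. Scg5 lies on chromosome 2. In recombinant inbred lines, neighbouring genes tend to be inherited together from 1 parent, so a split on 1 gene's level can also be a split on the genes around it.

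All 25 libraries of the series entered the comparison, and their sides were chosen by the measured Scg5 value. A strain was placed on the low side where its Scg5 normalized count was under 6000, which took in 17 strains, and on the high side where it was 6000 or more, which took in 8. The lines descend from C57BL6/J and DBA2/J, and the mice were 8 weeks old. Each strain had 1 library, and the labels name no treatment. Of the 16 strains whose names end in TyJ, 9 were low and 7 were high, and of the 9 whose names end in RwwJ, 8 were low and 1, BXD89, was high. With 1 library per strain, a p-value here measures a difference against the spread between strains, in which genotype, animal, dissection and library are joined. The number and sex of the animals behind a library were not given in the sources used here.

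Values were the authors' normalized counts per gene, whole numbers that share one upper quartile across the libraries. They summed to between 24637919 and 26860283 per library. Sensory neuron markers were present in every library: Tubb3, a neuronal tubulin, ran from 70436 to 109907 and Avil, which marks sensory ganglia, from 14954 to 28042. The mean log2 level of 13 sensory neuron markers had a median of 14.28 on both sides.

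The Scg5 values left a wide empty stretch around the threshold. The 17 low strains ran from 2048 in BXD13 to 3195 in BXD48, with a median of 2568. The 8 high strains began at 12654 in BXD16 and had a median of 13550. BXD28 had 13050, BXD11 had 13127, BXD89 had 13306 and BXD42 had 13794. The remaining high strains, BXD21 with 22700, BXD36 with 24251 and BXD40 with 24836, formed a further level above those. The members nearest the threshold were BXD48 below it and BXD16 above it. These values chose the sides and are a description, with no test.

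**Figure D1:**
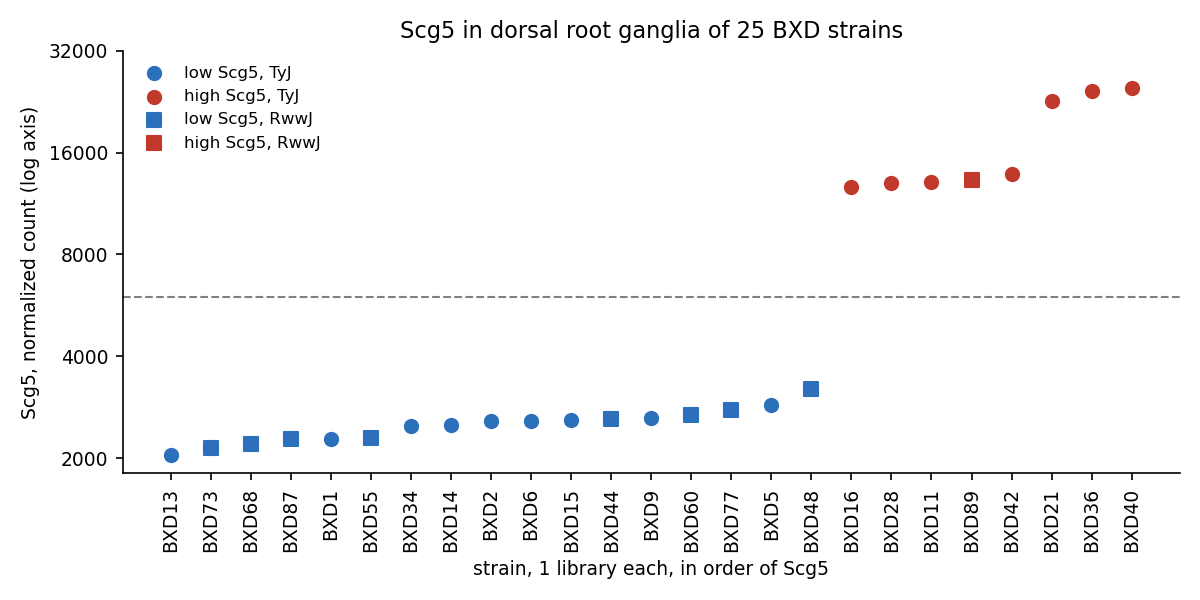
Scg5 normalized count (log axis) in each of 25 strains, ordered by level, 1 library each. Circles are TyJ strains and squares RwwJ strains, blue is low and red is high, and the dashed line is the threshold of 6000. No strain lies between 3195 and 12654, and BXD21, BXD36 and BXD40 sit at 22700 to 24836.

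BXD21, BXD36 and BXD40 also had their most similar libraries among each other across the genome. Over 14825 tested genes that were not on chromosome 2, the library most similar to BXD21 was BXD40, and the one most similar to BXD36 and to BXD40 was BXD21. The correlation of their deviations from the gene means was 0.46 in each case. The highest such value for any other library was 0.41, between BXD68 and BXD73. These correlations are across genes within a pair of libraries, and genes are not independent replicates. The called genes, the shares of small p-values and the prohormone lists are therefore given with and without these 3 strains, and the counts of genes at 2 levels over all 25. Leaving out the 3 strains also leaves fewer high strains, which by itself gives a larger p-value for the same difference.

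Across the genome few genes differed between the sides. Of 16151 genes tested with limma on log2(normalized count + 1), 11 passed a Benjamini-Hochberg adjusted p of 0.05, which is 0.0681% of the genes tested. Of these, 4 were higher and 7 lower in the Scg5-high strains. Chromosome 2 held 9 of the 11, which is 0.679% of its 1326 tested genes, and the other chromosomes together held 2 of 14315, or 0.014%. None of 510 genes without an annotation passed. Without BXD21, BXD36 and BXD40, 2 genes passed, Sord and A530058N18Rik, both on chromosome 2. By an exact rank-sum test over all 25 strains 3 genes passed, Sord, A530058N18Rik and Mfap1b.

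The called genes of chromosome 2 lay close to Scg5 and mostly on its distal side. Distances are given as the number of tested genes from Scg5 in gene order, distal being the side away from the centromere. Muc15 was 13 genes proximal. A530058N18Rik was 3 genes distal, Meis2 9, Spint1 39, Pla2g4e 61, Tgm5 79, Mfap1b 92, Casc4 96 and Sord 102. Their directions were mixed, with Tgm5 and Pla2g4e higher and the other 7 lower where Scg5 was high.

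**Figure D2:**
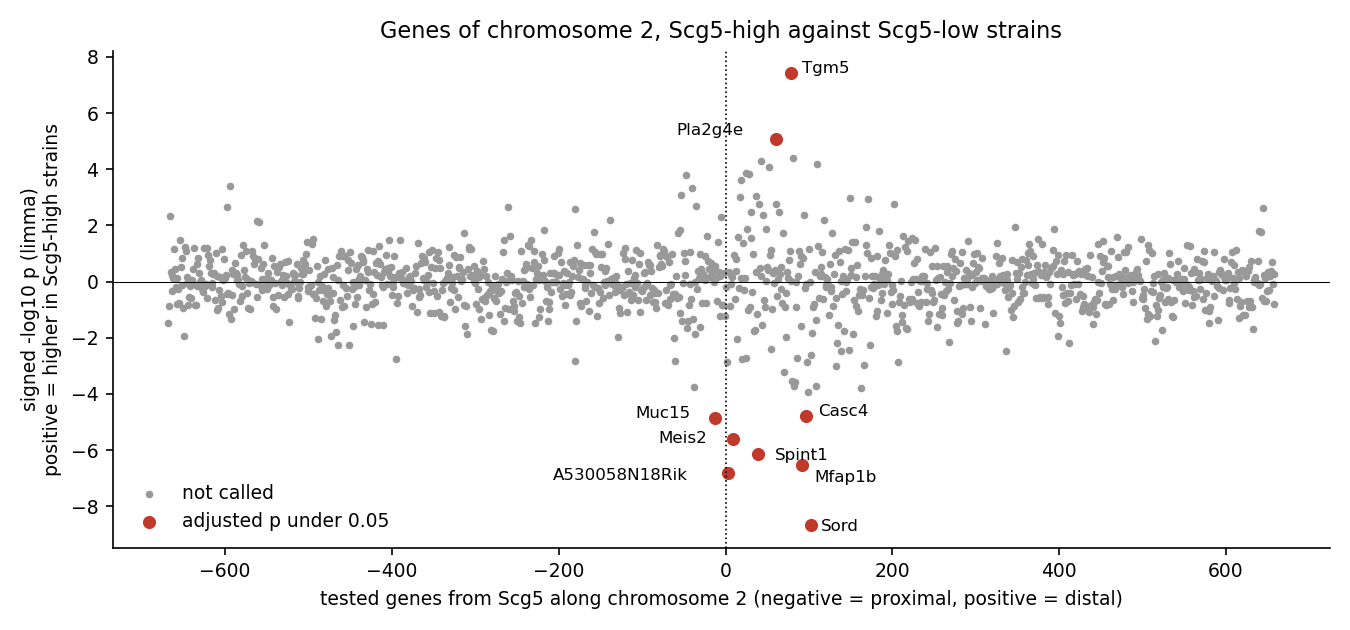
Each point is 1 of 1326 tested genes of chromosome 2, by its place in gene order relative to Scg5 (dotted line at 0), against the signed -log10 of its unadjusted limma p, positive where the gene was higher in Scg5-high strains. The 9 red points passed an adjusted p of 0.05 and lie between 13 genes proximal and 102 genes distal of Scg5.

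Smaller differences followed the same stretch. An unadjusted p under 0.05 was reached by 10.2% of all genes tested and by 9.86% of genes on other chromosomes. It was reached by 24 of the 50 genes just distal of Scg5 (48%), by 20 of the next 50 (40%), by 15 of the 50 after those (30%), and by 10 (20%) and 12 (24%) in the blocks of 50 that followed. On the proximal side the share was 13 of 50 (26%) in the nearest block and 7 of 50 (14%) in the next. From 250 genes distal onwards no block of 50 exceeded 12%, and among the blocks over 100 genes proximal the highest was 18%. These shares were mostly lower without BXD21, BXD36 and BXD40, where fewer high strains were compared. The part of the 3 strains and that of the smaller group were not separated. Without them the share was 2.64% of all genes (426 of 16151) and 2.22% of genes on other chromosomes. Going distal from Scg5 it was then 13 (26%), 19 (38%), 15 (30%), 3 (6%) and 2 (4%) in the successive blocks of 50, and 9 (18%) in the nearest proximal block. Over all strains, among the 24 genes of the nearest distal block, 14 were higher and 10 lower, and the median log2 difference of the block was 0.03, beside 0.01 over all genes.

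Sord showed the smallest p. It encodes sorbitol dehydrogenase, which turns sorbitol into fructose in the polyol pathway. The 8 Scg5-high strains ran from 841 to 1559 normalized counts with a median of 938, and the 17 Scg5-low strains from 1142 to 2118 with a median of 1802. Of the high strains, 7 were at 1072 or below and BXD89 alone was at 1559, and of the low strains BXD15 alone was under 1576, at 1142. The log2 difference was -0.86 (SE 0.10, adjusted p 3.38e-05 by limma), and without BXD21, BXD36 and BXD40 it was -0.74 (adjusted p 0.00798). Part of the Sord transcript, 1070 of 2352 bases, matches Gm6652, a processed pseudogene on chromosome 1, at 99.3%. Gm6652 had no value in these data. Whether reads of the pair were mixed was not tested.

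Tgm5, a transglutaminase that cross-links proteins in the epidermis, was higher with high Scg5. It ran from 41 to 245 with a median of 189 in the Scg5-high strains and from 15 to 121 with a median of 38 in the Scg5-low strains. The strains fell into a lower level of 15 to 52 and an upper level of 121 to 245, and BXD89 was in the lower and BXD15 in the upper. On the log2 scale Tgm5 differed by 2.14 (SE 0.28, adjusted p 0.000311 by limma). Without BXD21, BXD36 and BXD40 it was 1.93, with an adjusted p of 0.0531.

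A530058N18Rik, a processed transcript, was the 1 gene whose groups did not overlap, 0.00619% of the genes tested. The Scg5-high strains ran from 5 to 11 with a median of 7 and the Scg5-low strains from 14 to 44 with a median of 20. Every high strain, BXD89 included, lay under every low strain. On the log2 scale the sides differed by -1.35 (SE 0.19, adjusted p 0.000793 by limma), and without BXD21, BXD36 and BXD40 it was -1.49 (adjusted p 0.00798). The annotated span of A530058N18Rik overlaps that of Gjd2 on the opposite strand. The library kit does not mark strand, so reads from any shared stretch could not be told apart. The best match of the A530058N18Rik transcript in another gene was not Gjd2 but Abca12, over 135 bases at 83.0%. How many reads the pair shares was not tested. Gjd2, which encodes the gap junction protein connexin 36, ran from 30 to 73 in the high and from 46 to 126 in the low strains, with a log2 difference of -0.61 (adjusted p 0.376 by limma). In TyJ strains alone the A530058N18Rik difference was -1.01 with an adjusted p of 0.0909.

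Spint1 and Meis2 were lower in the high strains. Spint1 encodes an inhibitor of cell-surface serine proteases. It ran from 5 to 67 with a median of 13.5 in the Scg5-high strains and from 26 to 113 with a median of 56 in the Scg5-low strains. Of the high strains 7 were at 17 or less, under every low strain, and BXD89 was at 67. For Spint1 the log2 difference was -1.96 (SE 0.30, adjusted p 0.00193 by limma). Meis2, a homeobox transcription factor, ran from 249 to 385 with a median of 285 in the high strains and from 335 to 602 with a median of 456 in the low strains. Only the upper end of the high strains, BXD36 at 385 and BXD42 at 342, reached into the range of the low strains. For Meis2 the log2 difference was -0.60 (SE 0.10, adjusted p 0.00579 by limma). Without BXD21, BXD36 and BXD40 the differences were -1.49 for Spint1 (adjusted p 0.181) and -0.60 for Meis2 (adjusted p 0.0939). In TyJ strains alone the Meis2 difference was -0.42, with an adjusted p of 0.607.

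Pla2g4e, Casc4 and Muc15 had larger adjusted p-values. Pla2g4e, a cytosolic phospholipase A2, ran from 49 to 192 with a median of 134 in the Scg5-high strains and from 32 to 87 with a median of 51 in the Scg5-low strains, and BXD89 at 49 was the lone high strain under 95. This was a log2 difference of 1.12 (SE 0.20, adjusted p 0.0173 by limma), and of 1.17 (adjusted p 0.181) without BXD21, BXD36 and BXD40. Casc4, which encodes a Golgi membrane protein, ran from 936 to 1650 with a median of 1351.5 in the high and from 1465 to 1852 with a median of 1661 in the low strains. This was a log2 difference of -0.38 (SE 0.07, adjusted p 0.0238 by limma), and its lowest values were 936 in BXD36, 1045 in BXD40 and 1129 in BXD21. Without those 3 strains the difference was -0.20 (adjusted p 0.806), and in TyJ strains alone it was -0.40 (adjusted p 0.299). Muc15, a membrane mucin, ran from 1 to 15 with a median of 5.5 in the high and from 4 to 42 with a median of 22 in the low strains. This gave a log2 difference of -1.80 (SE 0.34, adjusted p 0.0224 by limma), -1.27 (adjusted p 1) without the 3 strains and -1.87 (adjusted p 0.247) in TyJ strains alone. Muc15 overlaps Ano3 on the opposite strand, which had a mean of 9818.5, so its few reads are uncertain.

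**Figure D3:**
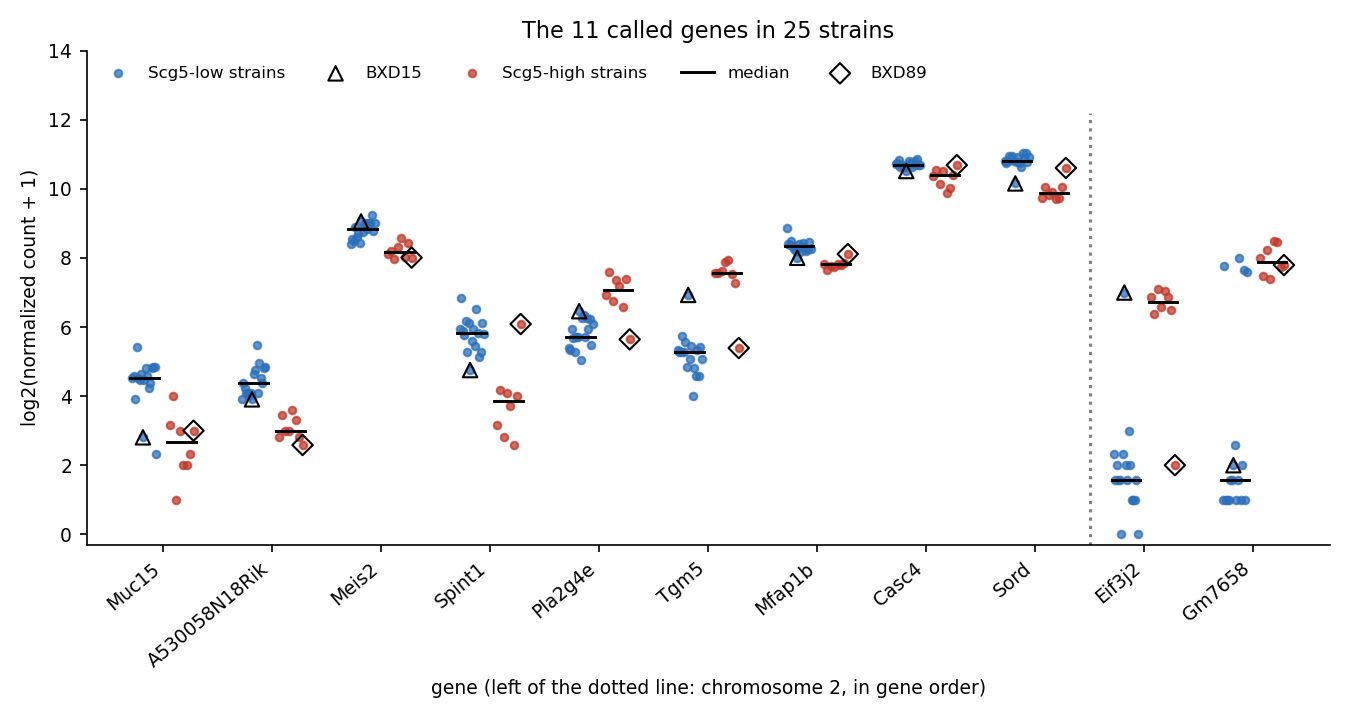
log2(normalized count + 1) of the 11 called genes in 25 strains, blue for the 17 Scg5-low and red for the 8 Scg5-high strains, with a black line at each median. The 9 genes left of the dotted line are on chromosome 2, in gene order. The outlined diamond is BXD89 and the outlined triangle BXD15. At Tgm5 and Eif3j2 these strains lie with the opposite side, while at A530058N18Rik and Meis2 they lie with their own.

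Strains BXD89 and BXD15 lay on different sides at different genes. BXD89 is Scg5-high, and at the called genes near Scg5 it lay with the high strains, with 5 for A530058N18Rik, 257 for Meis2 and 7 for Muc15. From Spint1 onwards in the distal direction it lay with the low strains, with 67 for Spint1, 41 for Tgm5, 1650 for Casc4 and 1559 for Sord. BXD15 is Scg5-low and had 532 for Meis2, within the range of the low strains, but 6 for Muc15, where 15 of the 17 low strains had 14 or more. Further distal it lay in the upper level of Tgm5, with 121, and was at 1011 for Bloc1s6, where BXD89 was at 669. Bloc1s6 encodes a subunit of the BLOC-1 complex, which sorts cargo to lysosome-related organelles, and its medians were 945 in the high and 716 in the low strains.

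Leaving out either strain raised the number of calls. Both strains were picked after their values were seen, as exceptions at genes called here. A rise in calls near those genes follows in part from that choice. Without BXD89, 20 genes passed, 16 of them on chromosome 2, and without BXD15, 18 passed, 16 of them on chromosome 2. In both cases all 11 genes of the comparison over 25 strains passed again. Named after their values were seen, the genes gained on chromosome 2 without BXD89 were Adal, Chac1, Bloc1s6, Fbln7, Spg11, Slc30a4 and Gm13328. Those gained without BXD15 were Bloc1s6, Adal, Itpka, Zscan29, Ehd4, Chac1 and Gm13328. Adal, an enzyme of the adenosine deaminase family whose gene overlaps Lcmt2 on the opposite strand, had a log2 difference of 0.45 over all strains (adjusted p 0.0517) and of 0.54 without BXD89 (adjusted p 0.000734 by limma). Chac1, which breaks down glutathione and belongs to the stress response of the endoplasmic reticulum, had 0.57 (adjusted p 0.0656) and 0.69 (adjusted p 0.000738 by limma). Bloc1s6 had 0.33 (adjusted p 0.0754) and 0.40 (adjusted p 0.00103 by limma).

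The immediate neighbours of Scg5 other than A530058N18Rik did not pass. On the proximal side, Grem1, a secreted antagonist of bone morphogenetic proteins, had a log2 difference of -0.36 (95% interval -0.74 to 0.02). Gm13965 had 0.14 (-0.28 to 0.56). Fmn1, an actin-nucleating formin, had -0.15 (-0.35 to 0.05), and Ryr3, a calcium release channel, had -0.28 (-0.65 to 0.10). Aven, an inhibitor of apoptosis, had 0.25 (0.08 to 0.42, adjusted p 0.483). On the distal side, Arhgap11a had -0.05 (-0.25 to 0.16), Actc1, the cardiac actin, 0.51 (-0.84 to 1.86) and Aqr, an RNA helicase of the spliceosome, -0.08 (-0.19 to 0.03).

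Among these neighbours the 3 strains with the highest Scg5 had values of their own. Ryr3 was at 131 in BXD21, 153 in BXD36 and 148 in BXD40, against 279 to 373 in the other 5 high strains and 190 to 543 in the low strains. Fmn1 was at 1911, 1776 and 1674 in the same order, against 2513 to 2941 in the other 5. Aven was at 568, 574 and 550, against 364 to 445. Without the 3 strains the log2 difference was 0.13 for Ryr3 and 0.08 for Fmn1, the opposite sign to that over all strains.

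Both called genes on other chromosomes were near-identical copies of genes on chromosome 2. Gm7658, a processed pseudogene on chromosome 1 that overlaps Kcnq5 on the same strand, matches the coding part of Eif3m. Eif3m encodes the M subunit of eIF3 and lies 36 genes proximal of Scg5. Over 1125 aligned positions the pair had 17 differences, and the longest stretch without any was 157 bases. The 90-base window of the Eif3m coding sequence with the most differences, bases 427 to 516 from the start codon, shows how little separates them. It is given 5′ to 3′ with the 4 differing bases in capitals, from GENCODE M21 transcripts:
Eif3m: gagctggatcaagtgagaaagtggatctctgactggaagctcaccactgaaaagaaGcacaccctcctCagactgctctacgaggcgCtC
Gm7658: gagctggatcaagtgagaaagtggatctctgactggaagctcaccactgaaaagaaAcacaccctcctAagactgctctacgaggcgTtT

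Gm7658 ran from 167 to 356 with a median of 237 in the Scg5-high strains and from 1 to 254 with a median of 2 in the Scg5-low strains. All 8 high strains and 4 low strains, BXD2 at 216, BXD55 at 254, BXD73 at 202 and BXD87 at 192, were at the upper level, and the other 13 low strains were at 5 or less. The sides differed by 5.04 on the log2 scale (SE 0.95, adjusted p 0.0224 by limma), and 4.77 (adjusted p 0.692) without BXD21, BXD36 and BXD40. Eif3m itself ran from 1458 to 2848 in the high and from 1559 to 2923 in the low strains, with a log2 difference of -0.001 (95% interval -0.24 to 0.24). The strains BXD2, BXD55, BXD73 and BXD87 were also on the other side at Cd59b, 47 genes proximal of Scg5, together with BXD5.

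The other copy, Eif3j2 on chromosome 18, matches Eif3j1 at 99.4% of bases over its whole transcript, and Eif3j1 lies 98 genes distal of Scg5. Both encode the J subunit of the translation initiation factor eIF3. Eif3j2 ran from 3 to 137 with a median of 105 in the Scg5-high strains and from 0 to 127 with a median of 2 in the Scg5-low strains. It was at 7 or less in 17 strains and at 83 or more in 8, and the exceptions to the Scg5 sides were BXD89 at 3 and BXD15 at 127, as for Tgm5. The sides differed by 4.31 on the log2 scale (SE 0.65, adjusted p 0.00134 by limma), and 3.81 (adjusted p 0.161) without the 3 strains of highest Scg5. Eif3j1 ran from 529 to 652 in the high and from 580 to 774 in the low strains, with a log2 difference of -0.18 (adjusted p 0.376). Whether reads of Eif3j1 or Eif3m were assigned to their copies was not tested, since reads were not used here.

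Mfap1b, a spliceosome gene called 92 genes distal of Scg5, lies next to its own copy Mfap1a. Their coding sequences had 0 differences over 1320 positions, and 98.2% of 2409 aligned bases were alike. Mfap1b ran from 201 to 276 with a median of 224 in the Scg5-high and from 256 to 465 with a median of 327 in the Scg5-low strains. Between the sides it differed by -0.52 on the log2 scale (SE 0.08, adjusted p 0.00117 by limma), and -0.50 (adjusted p 0.0768) without the 3 strains of highest Scg5. Mfap1a had 0.07 (95% interval -0.03 to 0.16). Counts of the pair are uncertain, since reads from the shared stretch cannot be assigned to one of them.

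A further copy lay far from Scg5 on chromosome 2. Gm13328, 594 genes proximal, is a processed pseudogene that matches Mrps5 at 98.4% of bases, and Mrps5, a mitochondrial ribosomal protein gene, lies 151 genes distal of Scg5. The Gm13328 values were 0 or 1 in 17 of the strains, while 8 had 43 to 66. Its sides were those of Scg5 in 21 of 25 strains, the exceptions being BXD9, BXD11, BXD15 and BXD89, of which BXD9, BXD11 and BXD89 were also the exceptions at Fbln7, 162 genes distal. Between the Scg5 sides it differed by 3.54 on the log2 scale (adjusted p 0.216 by limma), 4.17 without BXD89 (adjusted p 0.0303) and 3.84 without BXD15 (adjusted p 0.0464). Mrps5 had a log2 difference of 0.03 (95% interval -0.09 to 0.15). The window of Mrps5, bases 768 to 857 of its coding sequence, is shown by the same choice with its 5 differences in capitals:
Mrps5: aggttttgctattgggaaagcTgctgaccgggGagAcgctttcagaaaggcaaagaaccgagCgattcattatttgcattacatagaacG
Gm13328: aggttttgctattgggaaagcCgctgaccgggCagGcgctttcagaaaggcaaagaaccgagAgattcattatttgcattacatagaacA

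The genes that themselves lay at 2 levels gave a count of strains on each side. A gene was taken as being at 2 levels where its ordered log2 values had a step of at least 1 with 5 or more strains on each side. Such genes numbered 19 on chromosome 2 and 156 on other chromosomes. By the definition at least 13 of 25 strains must lie on their Scg5 side, in one sense or the other. The median was 16 on chromosome 2 and 14 on other chromosomes. The one such gene within 100 genes of Scg5, Tgm5, had 23, and on other chromosomes the highest was 23, reached by Eif3j2, followed by Gm7658 with 21.

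With a step of at least 0.5 more genes could be placed along the chromosome. Chromosome 2 then had 52 genes at 2 levels, of which 9 agreed in 20 or more strains, beside 4 of 356 on other chromosomes. Within 50 genes of Scg5 there were 5, with a median of 20 and a highest of 24, for Spint1, where BXD89 was the single exception. Muc15 had 22, with BXD15, BXD16 and BXD87 as exceptions, and Cd59b, a complement regulator, had 20. Fbln7, an extracellular matrix protein, had 22. The median of the 33 genes farthest from Scg5, from 229 genes distal or 236 genes proximal outwards, was 15. The other two of the 5 nearest were Pak6 with 20 and Wt1 with 19. The exceptions were BXD6, BXD44, BXD48, BXD68 and BXD77 for Pak6 and BXD2, BXD21, BXD40, BXD55, BXD87 and BXD89 for Wt1.

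**Figure D4:**
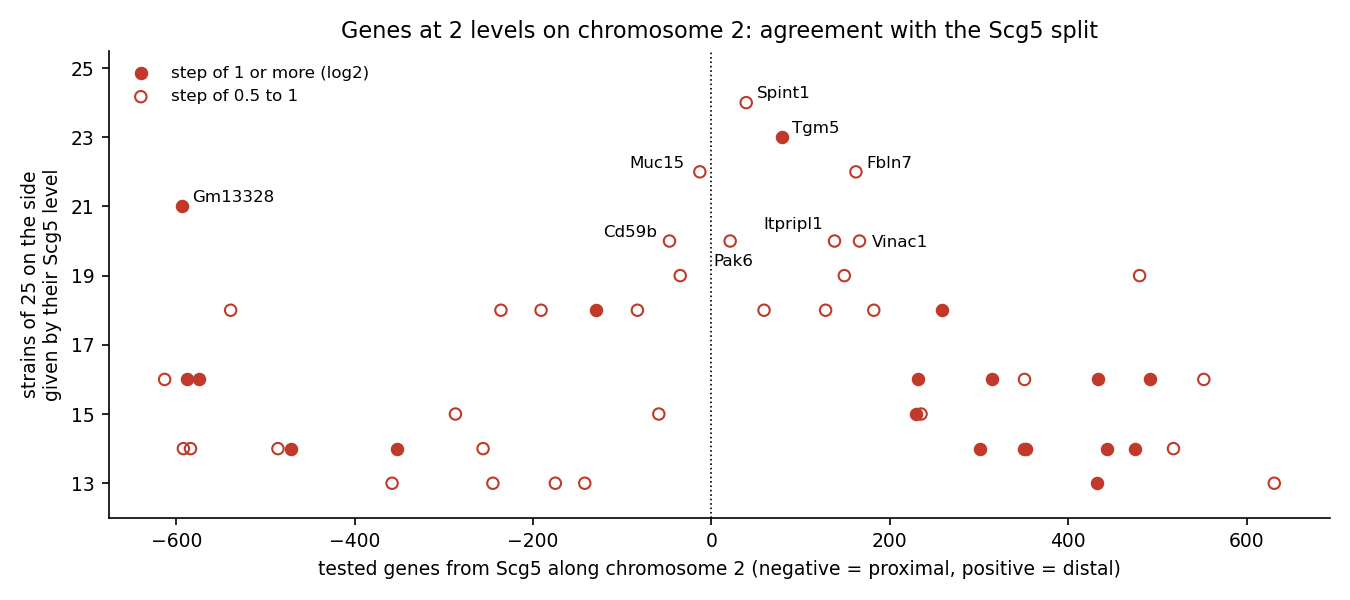
Each point is a gene of chromosome 2 at 2 levels, by its place in gene order relative to Scg5, against the number of 25 strains that lay on the side given by their Scg5 level. Filled points had a step of 1 or more on the log2 scale and open points a step of 0.5 to 1. Spint1 with 24 and Tgm5 with 23 are nearest to full agreement, and the 33 genes farthest from Scg5 have a median of 15, with Gm13328 at 21 apart.

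Genes of the prohormone pathway were compared next, because 7B2 acts in it. None of 17 processing enzymes, 7 granin and related genes or 34 neuropeptide precursors passed the limma test, where 0.0681% of all genes did, and 0 passed by the exact rank-sum test. At an unadjusted p under 0.05 there were 6 of these 58, or 10.3%, against 10.2% of all genes tested, and without BXD21, BXD36 and BXD40 there were 0 of 58 against 2.64%. Of 68 precursors listed, 34 were in the table. Neither did any of 36 genes of dense-core vesicle formation and release pass, nor any of 24 chaperone and stress genes of the endoplasmic reticulum, with 2 and 1 of them at an unadjusted p under 0.05.

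Pcsk2, the convertase that 7B2 serves, had 3958 to 5409 normalized counts with a median of 4918.5 in the Scg5-high strains and 3570 to 5640 with a median of 4511 in the Scg5-low strains. The ranges overlapped almost fully. The log2 difference was 0.09 (95% interval -0.08 to 0.26, adjusted p 0.654 by limma), although Pcsk2 also lies on chromosome 2, 253 genes distal. Pcsk1, the other main convertase of neuroendocrine cells, had -0.10 (-0.31 to 0.11), and 0.04 without the 3 strains. Cpe, which trims basic residues from peptide ends, had -0.02 (-0.15 to 0.12) with medians of 21922.5 and 21931. Pam, which amidates peptides, had 0.00 (-0.13 to 0.14), and Ctsl, a cathepsin that can also cleave proneuropeptides, had 0.11 (-0.06 to 0.27). The median over the 17 enzymes was -0.08 and 6 were positive, while without the 3 strains it was 0.03 and 10 were positive. Cpz and Cpm, metallocarboxypeptidases, had the lowest values, -0.77 (-1.41 to -0.13) and -0.39 (-0.78 to -0.01), neither of which passed after adjustment (adjusted p 0.491 for each).

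Of the granin list, Pcsk1n, which encodes proSAAS, the inhibitor of PC1, had the largest difference. It ran from 5731 to 12540 with a median of 7658 in the Scg5-high and from 3923 to 8531 with a median of 6985 in the Scg5-low strains. The 3 values above every low strain were BXD21, BXD36 and BXD40, at 12350, 12047 and 12540, and the other 5 high strains ran from 5731 to 7904. The log2 difference was 0.35 (0.04 to 0.67, adjusted p 0.491 by limma), and 0.02 (-0.27 to 0.31) without the 3 strains. Scg3 had 0.17 (-0.04 to 0.38), Scg2 0.16 (-0.03 to 0.34), Vgf 0.19 (-0.15 to 0.54), Chga -0.05 (-0.20 to 0.09) and Chgb -0.12 (-0.33 to 0.08). Gnas, whose locus also encodes a chromogranin-like protein, had 0.01 (-0.10 to 0.12). Without the 3 strains Scg3 had 0.01, Scg2 0.08 and Vgf 0.02, and the median over the 7 genes was 0.02 in place of 0.16.

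In 4 of the 34 neuropeptide precursors, Calca, Calcb, Gal and Nmb, BXD21, BXD36 and BXD40 all lay above the other 22 strains, and in 1, Pthlh, all below. Genes of the other lists did the same. Of the 17 processing enzymes 1 lay above and 3 below in this way, and of the 7 granin genes 1 and 0. Of 36 dense-core vesicle genes it was 2 and 1, and of 24 chaperone and stress genes 0 and 2. The same count over all genes was not made, so how unusual these counts are cannot be told. The 3 strains were singled out after their Scg5 values were seen. Calca, which encodes calcitonin and CGRP, had 73014 in BXD21, 62005 in BXD36 and 67452 in BXD40, against 29278 to 36601 in the other 5 high strains and 27092 to 40540 in the low strains. Its log2 difference was 0.36 (0.07 to 0.65, adjusted p 0.491 by limma) over all strains and -0.02 (-0.21 to 0.18) without the 3. Calcb, the second CGRP gene, had 6679, 6315 and 7261 in the same order, against 3357 to 4453 and 2890 to 5142. Nmb, the neuromedin B precursor, had 6873, 6900 and 7381, against 3761 to 5037 and 3669 to 5945. In Calca, Calcb and Nmb the other 5 high strains lay within the range of the low strains.

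Tac1, the substance P precursor, followed this only in part, with 14870 in BXD21, 8969 in BXD36 and 10948 in BXD40 against a low-strain maximum of 9961. Its log2 difference was 0.20 (-0.09 to 0.48). Adcyap1, which encodes PACAP, had 0.18 (-0.06 to 0.41) and Cartpt 0.19 (-0.56 to 0.94). Nppc, the C-type natriuretic peptide precursor, had the lowest value, -1.04 (-1.98 to -0.11, adjusted p 0.491 by limma). Over the 34 precursors 24 differences were positive with a median of 0.19, and without the 3 strains 16 were positive with a median of -0.02, beside 0.01 over all genes in both cases. In whole ganglia, fewer cells of a type and less RNA per cell cannot be told apart.

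**Figure D5:**
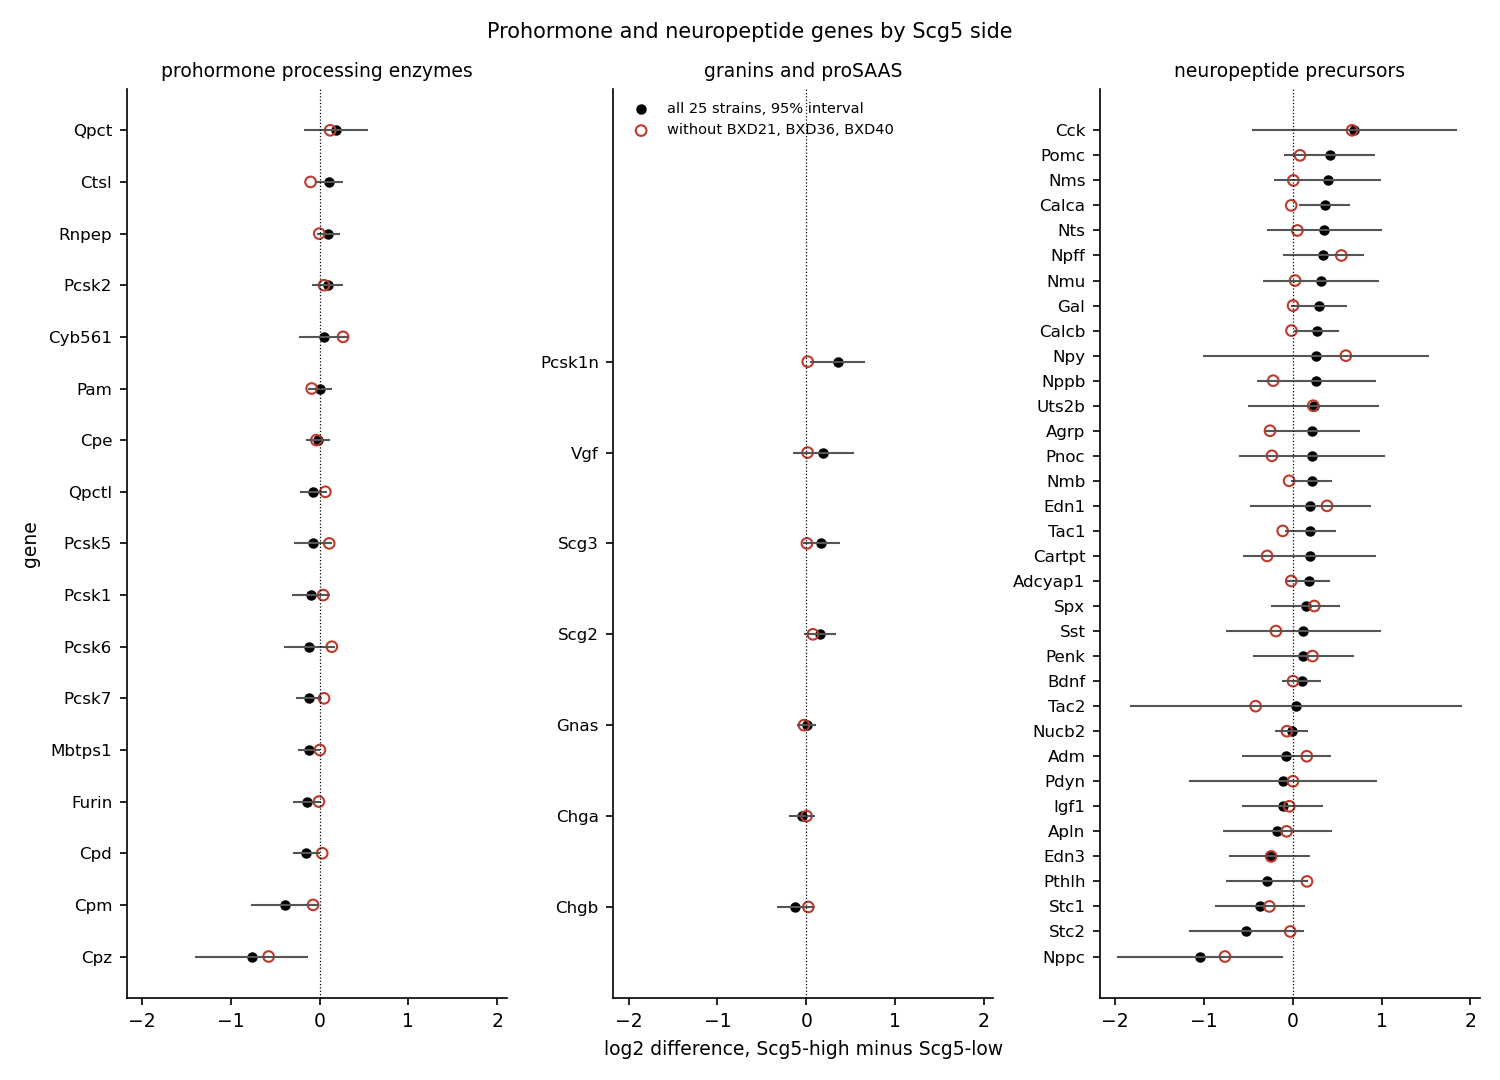
log2 difference, Scg5-high minus Scg5-low strains, for 17 processing enzymes, 7 granin and related genes and 34 neuropeptide precursors. Black points with bars are all 25 strains with 95% intervals, and red circles are the same without BXD21, BXD36 and BXD40. None passed the adjusted test, and Calca moves from 0.36 to -0.02 without the 3 strains.

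Markers of other cell types varied between the sides without passing the test. The mean log2 level of 7 skeletal muscle genes ran from 8.57 to 11.84 with a median of 10.38 in the Scg5-high strains and from 6.19 to 12.25 with a median of 9.23 in the low strains, and all 7 genes had positive differences. Of these genes Pvalb was at 2159 or more in every library, while the lowest values of the others were between 1 and 76. Whether Pvalb followed muscle content here was not tested. The mean log2 level of 9 spinal cord genes ran from 2.63 to 8.01 with a median of 5.81 and from 2.71 to 10.04 with a median of 3.45. Of those 9 genes, Slc32a1, Olig1, Olig2 and Opalin were at 0 in at least 1 library. That of 6 peptidergic nociceptor genes ran from 12.29 to 13.18 and from 12.21 to 12.60, with BXD21 highest, and 4 of its 6 genes are themselves neuropeptide precursors described above. Differences were also positive for 5 of 6 satellite glia genes (median 0.20) and 6 of 6 adipose genes (0.42). They were positive for 5 of 5 blood genes (0.14) and 8 of 9 genes of myelinating Schwann cells (0.13), beside a median of 0.01 over all genes. Of the satellite glia genes 2 had an unadjusted limma p under 0.05, which 10.2% of all genes reached. Fewer were positive among fibroblast genes, 1 of 6 (-0.11), endothelial and mural cell genes, 1 of 6 (-0.09), and macrophage genes, 2 of 6 (-0.005). Without BXD21, BXD36 and BXD40 the medians were 0.65 for muscle, 0.46 for spinal cord, 0.06 for satellite glia, 0.44 for adipose, -0.22 for blood and 0.26 for Schwann cell genes. They were then -0.06 for fibroblast, -0.03 for endothelial and mural cell and -0.12 for macrophage genes. The median of the peptidergic nociceptor genes was 0.19 over all strains and -0.02 without those strains. With the muscle, blood and Schwann cell levels as terms in the fit 7 genes passed, 6 on chromosome 2, and Meis2, Muc15, Casc4 and Gm7658 did not. The part of these tissues in the other results was not tested.

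Away from chromosome 2 and its copies, the smallest p-values belonged to genes that did not pass. Foxd3, a transcription factor of the neural crest and of ganglion glia, ran from 145 to 357 with a median of 288 in the Scg5-high strains and from 147 to 243 with a median of 189 in the low strains. Its log2 difference was 0.51 (0.27 to 0.76, adjusted p 0.121 by limma). Xxylt1, a xylosyltransferase that extends sugars on Notch, had -0.34 (-0.51 to -0.18, adjusted p 0.121 by limma). Without BXD21, BXD36 and BXD40 the differences were 0.40 for Foxd3 and -0.23 for Xxylt1 (adjusted p 1 for both). The median difference of the satellite glia genes, at 0.20, had the same sign as that of Foxd3, and their part in it was not tested. In the fit without BXD89 both passed, with 0.64 for Foxd3 (adjusted p 0.000734) and -0.39 for Xxylt1 (adjusted p 0.0481 by limma). That strain was singled out after its values were seen. It had the lowest Foxd3, at 145, so leaving it out had to widen the Foxd3 difference. Morc1 on chromosome 16 had 0.74 (0.39 to 1.09, adjusted p 0.129 by limma), and Abca8a, Pi15 and Rasl10b had 0.30, -0.96 and -0.36.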

How the data were processed

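Per the labels' protocols, Trizol was used for RNA and the TruSeq RNA kit v2 from Illumina for libraries; it does not mark strand. The tools in the submitters' processing notes are TopHat2 2.0.9, HTSeq and CASAVA 1.8.0, and the builds are mm9 and NCBIM37. The deposited values were treated as a score: the authors named them normalized counts, and they are whole numbers with one upper quartile (1478) in all libraries. The scaling tool is not given in the sources used here. Raw depth is unknown, so no count model was fitted.

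Of 16220 identifiers, 15697 matched GENCODE M21, a later build, used for names, gene order and transcripts only, and 523 did not. Genes with a mean of at least 10 were tested, apart from Scg5, and 68 fell below it. limma 3.58.1 in R 4.3.3 compared log2(value + 1) with a trended prior, two-sided, with Benjamini-Hochberg adjustment over all genes tested. The log2 scale understates changes of low genes. The fit was tested on simulated data. A list's level is the mean log2 value of its members. Transcripts were matched with blastn. The interaction with the strain ending was not fitted, since 1 RwwJ strain was Scg5-high.

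Named genes were the 5 nearest on each side of Scg5, the 12 and 8 of smallest p on and off chromosome 2, the 4 most abundant processing and granin genes, the 4 neuropeptide precursors of smallest p and 6 of largest mean, and genes at 2 levels. Other names were chosen after their values were seen. The strains, lists and tests were chosen with earlier results of these data known.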

Additional observations from a re-analysis of the deposited data

Results flagged for a closer look

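In 63 genes the 8 Scg5-high strains were examined for 1 strain far from the other 7 (the gap to the nearest value, divided by the range, above Dixon's 95% value). The 17 low strains were not examined in this way. It marked 10 genes. Chance marks about 1 group in 20 where values are normal and genes are independent and not selected. Many of these genes were named for their values or are neighbours on chromosome 2, so that rate cannot be set against the 10.

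BXD89 was the strain apart in 7 of the 10. It was highest for Sord at 1559, for Mfap1b at 276, for Spint1 at 67 and for Slc32a1, a spinal cord marker, at 156. It was lowest for Tgm5 at 41, for Bloc1s6 at 669 and for Eif3j2 at 3. BXD28 was highest for Olfr1033 at 31, where the other 7 high strains were at 0, and for Cdk5rap1 at 624. BXD40 was highest for Rps15a-ps7 at 68.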

How the results depend on the processing

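The count of 11 calls was 11 with a pseudocount of 10, without a filter, without the trend and without BXD48, 10 with equal totals and 10 with the strain ending as a term (9 shared). It was 7 with a mean of at least 50 (1 off chromosome 2), 7 with array weights (1 off), 7 with the tissue levels as terms (1 off), 9 in TyJ strains alone (7 shared), 3 by the exact rank-sum test (3 on chromosome 2, 0 off) and 2 without BXD21, BXD36 and BXD40 (2 on, 0 off), an alternative added after seeing the data. Leaving out 1 strain at a time gave 7 to 20 calls, 6 to 16 on chromosome 2 and 1 to 4 off it. The lowest was without BXD36, where Pla2g4e, Muc15, Casc4 and Gm7658 did not pass, and the highest were without BXD15 (18) and BXD89 (20). No prohormone or neuropeptide gene passed under any setting run.

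Signs turned, always in genes that did not pass. Without BXD21, BXD36 and BXD40 the log2 difference was 0.134 for Ryr3, 0.076 for Fmn1, 0.013 for Arhgap11a, -0.090 for Pam, -0.102 for Ctsl, -0.025 for Gnas, -0.018 for Calca, -0.015 for Calcb, -0.042 for Nmb, -0.290 for Cartpt, -0.018 for Adcyap1 and -0.114 for Tac1. With equal totals it was -0.020 for Pam and -0.014 for Gnas. With the ending as a term it was -0.035 for Pam, 0.0071 for Cpe, -0.0048 for Gnas and -0.099 for Cartpt. In TyJ strains it was -0.0098 for Pam and -0.026 for Cartpt. With array weights it was 0.0037 for Arhgap11a, -0.021 for Pam, -0.018 for Gnas and -0.209 for Cartpt. Without BXD48 it was -0.0094 for Pam. Leaving out 1 strain gave -0.032 to 0.030 for Pam, -0.036 to 0.0079 for Cpe, -0.022 to 0.042 for Gnas and -0.0086 to 0.459 for Cartpt. The cause was not tested.

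The median agreement of genes at 2 levels on chromosome 2 was 16 strains with a step of 1, of 0.5 or of 2, beside 14, 15 and 14 on other chromosomes. RwwJ strains alone were not fitted, since 1 was high. No paired analysis was possible because each strain has 1 library. Raw depth is unknown, so counting error at low genes such as Muc15 and A530058N18Rik has no interval.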
